A study of Homo sapiens with 6 samples.

Results

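The comparison described here set Caov-3 cells given interleukin-6 (IL-6) against untreated Caov-3 cells, on 2 of the 6 arrays of the series, 1 array each. Caov-3 is an established line of human ovarian carcinoma cells. The treated cells had IL-6 for 1 h at 30 ng/ml. A further Caov-3 array held cells given siltuximab, an antibody that binds IL-6, for 4 h before the same hour of IL-6. The dose of the antibody is not given in the labels, and no array held cells with the antibody alone among those analysed here. The 3 other arrays held a different ovarian carcinoma line, SKOV-3, under the same 3 conditions. RNA of 3 flasks was pooled for every array, so that a group is 1 sample, no difference has a replicate check, and no p-value is given. The arrays hold RNA of whole cultures, in which fewer cells making a transcript and less RNA per cell cannot be told apart.

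The Affymetrix U133 Plus 2.0 array measures many genes with several probe sets, each of which reads its own stretch of a transcript. A gene was therefore read through all of its probe sets. A probe set counted if it carried 1 gene symbol and stood at or above the median of its array on at least 1 of the 2 arrays. This left 24444 probe sets of 13004 genes, and 6466 genes had at least 2 of them. A gene is called higher or lower below if every one of these probe sets stood at least 1.5-fold the same way, which 111 of the 6466 genes did. Folds are log2 ratios of the IL-6 over the untreated signal after adding 17.06 to both, a scale that understates the folds of dim probe sets. On this scale 1.5-fold is 0.585.

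IL-6 binds its receptor IL6R, which pairs with gp130 (IL6ST), and Janus kinases bound to gp130 then phosphorylate the transcription factor STAT3. Phosphorylated STAT3 enters the nucleus and switches on early genes such as SOCS3, whose protein binds gp130 and the kinases and shuts the signal off, and STAT3 itself. In ovarian carcinoma IL-6 is made by tumour cells and by cells around them, and siltuximab was developed to block it.

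The array with IL-6 stood apart from the other 5 in its control probe sets. The beta-actin (ACTB) control had a 5' to 3' signal ratio of 0.494, against 0.643 to 0.767 on the other arrays. Its 5' probe set read 18660 with IL-6 and 28490 untreated, and its 3' probe set 37780 and 43190. The GAPDH ratio of 1.05 lay within the range of the other arrays, 0.957 to 1.07. The probe set for the middle part of the 28S ribosomal transcript read 887, against 2382 to 3307 elsewhere. Poly-A control transcripts, which are spiked into the RNA, averaged 1.51 times their untreated signal over 12 probe sets. They averaged 1.17 times on the Caov-3 array with siltuximab and 1.56 times on the SKOV-3 array with IL-6. A low 5' to 3' ratio is a usual sign of shorter RNA or shorter labelled copies, and its part in the values below was not tested. All folds of IL-6 over untreated in Caov-3 rest on this array.

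**Figure D1:**
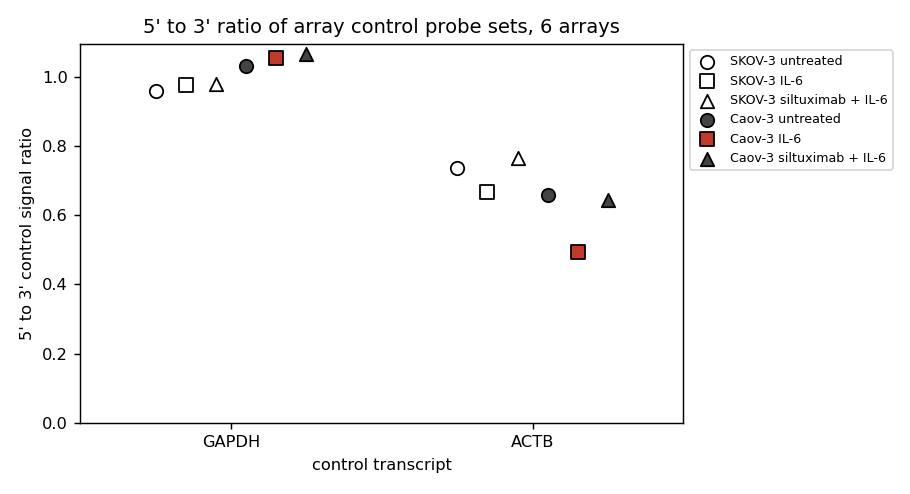
The ratio of 5' to 3' control signal (vertical axis, no unit) is drawn for GAPDH and ACTB on each of the 6 arrays, 1 point an array. The Caov-3 IL-6 array (red square) is the lowest for ACTB, at 0.494, and lies among the others for GAPDH, at 1.05.

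More genes stood lower than higher with IL-6. All probe sets were at least 1.5-fold higher for 22 genes, 0.34% of those tested, and at least 1.5-fold lower for 89 genes, 1.38%. The share of higher genes among the 111 was 19.8% on the deposited scale, 50.4% after quantile normalization (61 higher and 60 lower) and 46.3% after cyclic loess (57 and 66). The direction of the majority thus depends on the scaling. Single probe sets showed the same tilt on the deposited scale, with 6.38% of 24444 at least 1.5-fold higher and 14.8% lower, around a median fold of 0.0156. After quantile normalization these shares were 11.1% and 11.6%, and after cyclic loess 10.7% and 12%. In 237 genes, 3.67%, at least 1 probe set was 1.5-fold higher and at least 1 was 1.5-fold lower. Without a threshold on size, the probe sets of 38.8% of genes all had the same sign, 1299 higher and 1209 lower.

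The same rule gave smaller counts in both other comparisons with an untreated array. For siltuximab and IL-6 against untreated in Caov-3, which shares the untreated array, 16 of 6330 genes were higher (0.253%), 8 were lower (0.126%) and 61 were split both ways (0.964%). For IL-6 against untreated in SKOV-3, which shares no array, 19 of 6290 were higher (0.302%), 29 were lower (0.461%) and 93 were split (1.48%). Of single probe sets, 4.42% were higher and 4.9% lower in the first, and 6.49% and 6.23% in the second. On the deposited scale the Caov-3 IL-6 array therefore had about as many probe sets on the upper side as the SKOV-3 array, and more on the lower side.

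**Figure D2:**
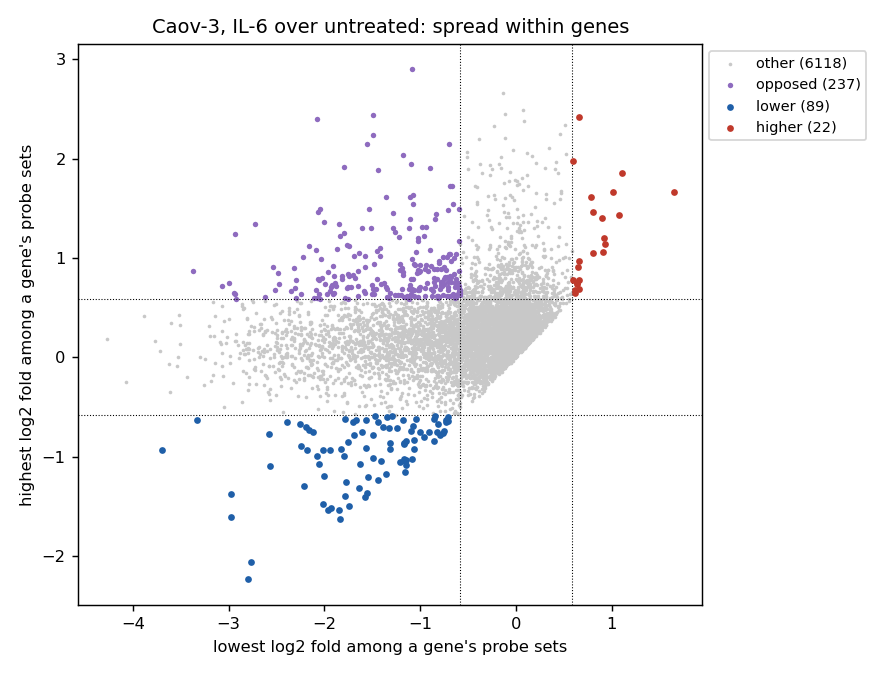
Each point is 1 of 6466 genes tested in Caov-3, placed by the lowest (horizontal axis) and the highest (vertical axis) log2 fold of IL-6 over untreated among its probe sets, with dotted lines at 1.5-fold. The 22 higher genes lie at the upper right, the 89 lower genes at the lower left, and the 237 genes whose probe sets were split (opposed, purple) lie at the upper left.

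Genes with more probe sets were less uniform. Of 3507 genes with 2 probe sets, 22 were higher, 67 lower and 53 split. Of 1740 genes with 3, none was higher, 18 were lower and 71 split, and of 1219 genes with 4 or more, none was higher, 4 were lower and 113 split. The 4 lower genes with 4 probe sets each were GTSE1, EHBP1L1, TMEM63A and B4GALT1. The last 3 are named after their values were seen.

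STAT3 itself was among the 12 lower genes with the largest folds. Its brightest probe set read 2521 untreated, 832.1 with IL-6 and 1254 with siltuximab before IL-6, a fold of IL-6 over untreated of -1.58. The second read 1420, 525.9 and 725.7, a fold of -1.40, and the third read 784.3, 280.9 and 832.5, a fold of -1.43. A dimmer probe set below the median read 81.55, 28.96 and 84.11. The IL-6 array was thus the lowest of the 3 for all 4 probe sets, while the array with siltuximab was near untreated for 2 of them and between for the others. In SKOV-3 the same 3 folds were 0.92, 0.70 and -0.07, in the same order.

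SOCS3, the feedback inhibitor, did not meet the rule in either direction. Its brightest probe set read 593.7 untreated, 845 with IL-6 and 625.4 with siltuximab before IL-6, a fold of 0.50. The robust SD of folds of IL-6 over untreated among probe sets of that brightness was 0.28. The next probe set read 154.3, 72.33 and 143.6, a fold of -0.94, and another read 142.1, 143.2 and 106.6, a fold of 0.01. A dimmer probe set below the median read 9.849, 29.45 and 5.897, a fold of 0.79. The 3 probe sets that counted thus disagreed, and the mean of their folds, -0.14, changed sign after quantile normalization and after cyclic loess.

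The chemokine gene CXCL3, whose product draws neutrophils, has a single probe set and so could not meet the rule. It read 211.2 untreated, 437 with IL-6 and 377.7 with siltuximab before IL-6, a fold of 0.99. In SKOV-3 it read 185.5 untreated and 179.8 with IL-6, a fold of -0.04. The robust SD of folds of IL-6 over untreated in Caov-3, among probe sets of the brightness of CXCL3, was 0.38. CXCL3 thus read higher than untreated on both Caov-3 arrays that had received IL-6. Both comparisons share the 1 untreated reading of 1 probe set, so the array with siltuximab is no independent check.

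The promoters of CXCL3, STAT3 and 2 members with a STAT match, PIANP and TRMT2B, are shown because STAT3 is the factor that IL-6 activates and NF-kB the one best known at chemokine genes. They come from RefSeq (GRCh38.p14), from 250 bases before to 50 bases after the start of the gene, 5' to 3' on the strand of the gene. Letters in capitals match the STAT motif TTCNNNGAA or the kappa B motif, on either strand and with no overlap between motifs. CXCL3 lies at chr4:74038640-74038939 on the minus strand, with its kappa B match GGGAATTTCC 79 bases before the start. STAT3 lies at chr17:42388393-42388692, minus strand, and holds no match in this window, nor does that of SOCS3, which is not printed. PIANP, a higher gene, lies at chr12:6700366-6700665, minus strand, and TRMT2B, a lower gene, at chrX:101052062-101052361, minus strand, with STAT matches 63 and 236 bases before the start.
CXCL3: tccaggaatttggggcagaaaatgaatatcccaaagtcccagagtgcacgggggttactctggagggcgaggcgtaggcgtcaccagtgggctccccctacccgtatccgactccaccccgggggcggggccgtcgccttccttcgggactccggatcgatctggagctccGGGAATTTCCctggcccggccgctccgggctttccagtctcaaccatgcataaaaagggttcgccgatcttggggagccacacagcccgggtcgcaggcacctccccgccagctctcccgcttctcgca
STAT3: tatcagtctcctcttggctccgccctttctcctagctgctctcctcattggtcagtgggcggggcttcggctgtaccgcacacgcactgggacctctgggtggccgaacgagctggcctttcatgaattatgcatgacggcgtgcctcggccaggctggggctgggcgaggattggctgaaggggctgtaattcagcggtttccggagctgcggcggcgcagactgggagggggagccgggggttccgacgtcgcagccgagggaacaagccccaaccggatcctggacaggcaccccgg
PIANP: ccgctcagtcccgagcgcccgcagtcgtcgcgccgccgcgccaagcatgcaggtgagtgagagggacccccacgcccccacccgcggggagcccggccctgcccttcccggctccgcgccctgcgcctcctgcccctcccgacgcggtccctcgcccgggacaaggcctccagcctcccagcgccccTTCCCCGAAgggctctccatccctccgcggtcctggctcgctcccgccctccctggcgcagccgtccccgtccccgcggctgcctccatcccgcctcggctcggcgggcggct
TRMT2B: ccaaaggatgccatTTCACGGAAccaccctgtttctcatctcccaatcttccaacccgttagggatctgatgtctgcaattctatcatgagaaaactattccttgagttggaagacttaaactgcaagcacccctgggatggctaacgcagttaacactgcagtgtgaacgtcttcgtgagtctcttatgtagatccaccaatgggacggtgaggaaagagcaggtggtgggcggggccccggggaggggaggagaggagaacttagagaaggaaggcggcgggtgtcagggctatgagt

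Promoters were found for 21 of the 22 higher genes and 66 of the 89 lower genes. A STAT match stood in 2 of the 21 (9.52%) and 4 of the 66 (6.06%), against 6.28% of 5386 tested genes with a promoter and 7.88% of all 27305 promoters. An AP-1 match (TGANTCA) stood in 1 (4.76%) and 2 (3.03%), against 3.97% and 7.76%. A kappa B match stood in none of the higher and in 3 of the lower genes (4.55%), against 4.68% and 3.87%. These shares rest on few promoters, and a match is a run of letters, not a bound site.

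The 22 higher genes were mostly dim, in part through the rule. Most had at least 1 probe set that reached the array median only with IL-6, where it was high. A low untreated signal of such a probe set follows from the choice. The median over genes of their mean signal was 78.0 untreated and 159 with IL-6, where the median untreated signal of all genes tested was 634. Of their 44 probe sets, 27 lay in the dimmest of 5 equal groups of probe sets by signal and 2 in the brightest. All 22 had 2 probe sets, 20 encode proteins, and their mean folds ran from 0.63 to 1.65 with a median of 1.01. Of 13 further probe sets of these genes below the median, 6 had the same sign.

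TP53I11, named for its induction by p53, had the largest fold held by both probe sets. They read 12.68 and 21.94 untreated, 76.94 and 105.2 with IL-6 and 62.05 and 68.12 with siltuximab before IL-6, with folds of 1.66 and 1.65. A further probe set below the median went the other way, from 62.44 to 29.24. TP53I11 was thus high on both arrays with IL-6 in the probe sets that counted, at signals below the array median of 89.6 when untreated.

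Receptors and signalling genes made up part of the remaining higher genes. IL1RL1, the receptor of interleukin-33, read 12.14 and 29.39 untreated against 75.35 and 76.88 with IL-6, folds of 1.66 and 1.02. With siltuximab and IL-6 these probe sets read 115.9 and 12.21, so that they disagreed on that array. The 2 other IL1RL1 probe sets, below the median, went from 23.42 to 31.82 and from 22.07 to 17.93, folds of 0.27 and -0.16. PIANP, a ligand of the immune receptor PILRA, read 16.93 and 117.9 untreated, 74.55 and 267.9 with IL-6 and 72.76 and 280.5 with siltuximab before IL-6, folds of 1.43 and 1.08. The PIANP signals of the arrays with IL-6 lay close together. GAREM2, an adaptor of growth factor receptors, had folds of 0.91 and 1.06, and its 2 signals were 82.71 and 60.49 untreated against 169.9 and 145 with IL-6.

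Among regulators of transcription, NFATC4, a factor activated by calcineurin, read 30.84 and 38.31 untreated against 88.4 and 88.46 with IL-6, folds of 1.14 and 0.93. A further NFATC4 probe set below the median went from 16.35 to 13.12, a fold of -0.15. GATA5, a zinc finger factor of heart and gut development, read 23.62 and 140.9 against 76.25 and 282.2, folds of 1.20 and 0.92. Both genes stood between or above these levels with siltuximab before IL-6, at 155.8 and 73.24 for NFATC4 and at 37.49 and 231.1 for GATA5.

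The others among the 12 largest had varied roles. BLZF1, a golgin of the medial Golgi, read 172.4 and 93.01 untreated and 483.3 and 188 with IL-6, folds of 1.40 and 0.90, but its 2 dimmer probe sets stood at -0.49 and -0.80. ATRNL1, a membrane protein related to attractin, had folds of 1.05 and 0.81, and SLX4, a scaffold of DNA repair nucleases, of 1.46 and 0.80. CLUH, which binds messages of mitochondrial proteins, read 309.7 and 24.03 untreated and 543.8 and 108.3 with IL-6, folds of 0.78 and 1.61. The antisense transcript ZNF232-AS1 had folds of 1.10 and 1.85. CBLL1, the ubiquitin ligase Hakai that acts on E-cadherin, was the brightest of them, at 426.8 and 651 untreated, 695.7 and 1038 with IL-6 and 728 and 863.8 with siltuximab before IL-6, folds of 0.68 and 0.66.

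Some higher genes outside the 12 were brighter, and are named after their values were seen. WNT5A, a ligand of non-canonical Wnt signalling, read 776.9 and 375.7 untreated, 1218 and 644.8 with IL-6 and 947.4 and 495.8 with siltuximab before IL-6, folds of 0.64 and 0.75. MRPL50, a protein of the mitochondrial ribosome, read 503.9 and 878.9 untreated and 877.5 and 1341 with IL-6, folds of 0.78 and 0.60. PM20D2, a dipeptidase, had the highest signals of the 22 genes, 2152 and 1663 untreated and 3305 and 2617 with IL-6, folds of 0.62 and 0.65. Near the threshold, FAM20C, a kinase of secreted proteins, was just inside with a smaller fold of 0.597, and BBS7, a protein of cilia, just outside at 0.582.

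The 89 lower genes were brighter than the 22 higher genes when untreated, a signal that the rule used, but not with IL-6. Many had at least 1 probe set that reached the array median only on the untreated array, where it was high. A low IL-6 signal of such a probe set follows from the choice. CREG2, CLSPN, FAM111B, TRMT2B, HCG11 and DMC1, described below, are among these genes. The median over the 89 genes of their mean signal was 321 untreated and 137 with IL-6, against 78.0 and 159 for the higher genes. Over all genes tested the untreated median was 634. The mean folds of the 89 ran from -2.52 to -0.66 with a median of -1.16. Of their 204 probe sets, 69 lay in the dimmest of the same 5 groups and 7 in the brightest. Of the 89, 67 had 2 probe sets and 74 encode proteins. Of 49 further probe sets of these genes below the median, 32 had the same sign.

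DNASE2, the acid nuclease that digests DNA in lysosomes, had the largest fold. Its probe sets read 2135 and 1204 untreated, 440.3 and 158.1 with IL-6 and 1540 and 989.7 with siltuximab before IL-6, folds of -2.23 and -2.80. Next came the noncoding transcript LOC100190986, at 1137 and 601.7 untreated, 259.1 and 74.18 with IL-6 and 868 and 428.3 with siltuximab before IL-6, folds of -2.06 and -2.76. For both genes the IL-6 array was the lowest of the 3 and the siltuximab array lay nearer to untreated. In SKOV-3 the folds of DNASE2 were 0.13 and -0.03.

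CLSPN, GTSE1 and DMC1, with roles in DNA replication, mitosis and recombination, were also among the 12 largest. CLSPN (claspin), which helps to activate the checkpoint kinase CHEK1, read 161.3, 182.6 and 456.1 untreated, 41.66, 8.378 and 108.4 with IL-6 and 74.53, 78.51 and 364 with siltuximab before IL-6, folds of -1.60, -2.97 and -1.91. GTSE1, a microtubule-binding protein of G2 and mitosis, read 960.8 to 2286 untreated, 320.9 to 795.7 with IL-6 and 830.2 to 2243 with siltuximab before IL-6. Its 4 folds ran from -2.02 to -1.47. DMC1, the recombinase of meiosis, had folds of -1.49 and -1.74, and FAM111B, a protease, of -1.54 and -1.96. FAM111B read 356.1 and 286.6 untreated, 111.6 and 60.82 with IL-6 and 406.9 and 344.5 with siltuximab before IL-6. Of the 28 tested genes on a list of the cell cycle and mitosis, however, only CDC6 was lower and 1 was split, as given below.

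Enzymes and others completed the 12. TRMT2B, a methyltransferase of mitochondrial RNA, read 113.7 and 535.8 untreated, 28.09 and 136.7 with IL-6 and 193.4 and 537.1 with siltuximab before IL-6, folds of -1.53 and -1.85. H6PD, which makes NADPH in the endoplasmic reticulum, read 476.6 and 667.5, 126.6 and 242.8, and 389.1 and 669 in the same order, folds of -1.78 and -1.40. UBXN7, a cofactor of the segregase VCP, read 975.5 and 793.3, 365.9 and 85.69, and 789.7 and 463.3, folds of -1.37 and -2.98. In all of these probe sets the IL-6 array was the lowest. CREG2, a secreted glycoprotein, had folds of -1.63 and -1.84, and the noncoding HCG11 of -1.51 and -1.93.

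**Figure D3:**
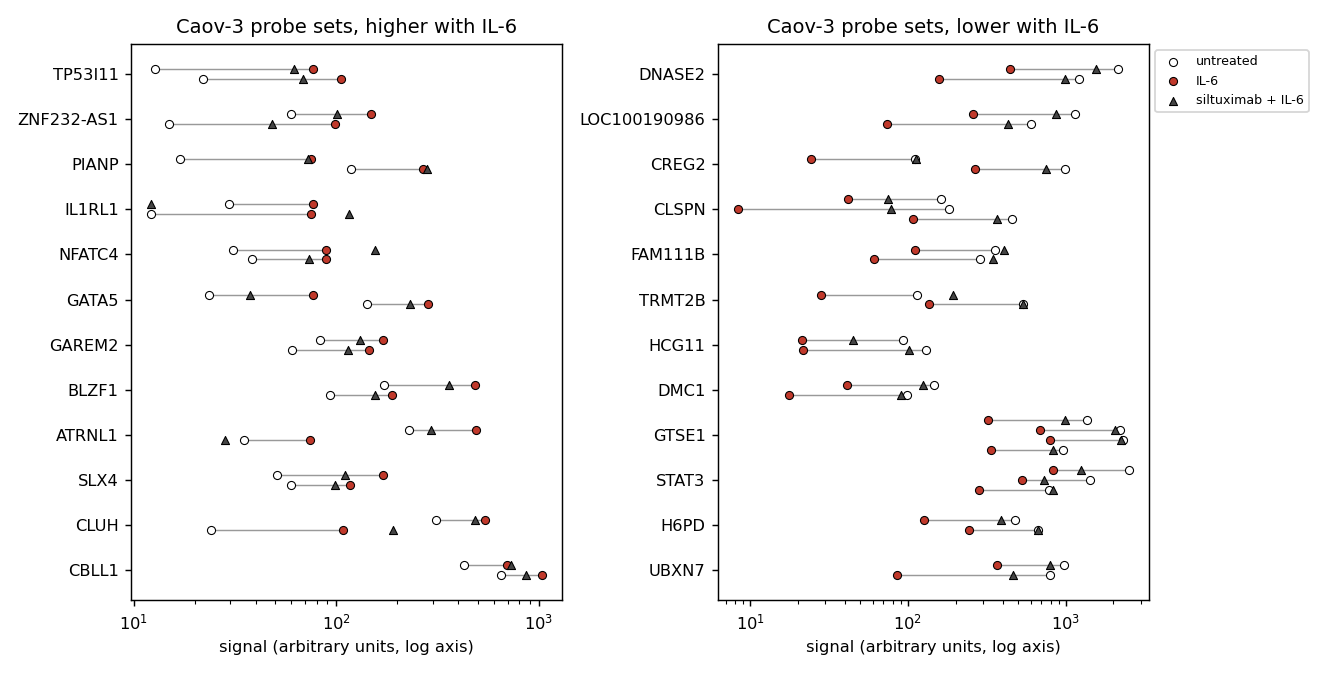
Signals (horizontal log axes, arbitrary units) are shown for each probe set of the 12 higher (left) and 12 lower genes (right) with the largest folds, on the untreated (white), IL-6 (red) and siltuximab plus IL-6 (triangle) arrays of Caov-3. The higher genes lie mostly between 12 and 1038 and the lower ones up to 2521, and the triangles of the lower genes lie mostly toward the untreated signal.

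Further lower genes were bright in Caov-3, and are named after their values were seen. ALYREF, an adaptor for export of messenger RNA, read 3795 and 1925 untreated, 1282 and 736.1 with IL-6 and 3944 and 1960 with siltuximab before IL-6, folds of -1.55 and -1.37. PTGES, which makes prostaglandin E2, read 1198 and 5539, 509.8 and 2655, and 889.3 and 5053, folds of -1.21 and -1.06. OGDH, the dehydrogenase of 2-oxoglutarate in the citric acid cycle, had folds from -3.69 to -0.93 over 3 probe sets. TNPO3, an import receptor for splicing factors, had folds from -0.73 to -0.63 over 3 probe sets that read 1129 to 2495 untreated and 680.8 to 1604 with IL-6. Near the threshold, CEP97, a centriole protein, was just inside with a smaller fold of -0.586, and ADAM15, a membrane protease, just outside at -0.582.

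The lower genes also held RNA45SN5, the precursor of ribosomal RNA, with folds of -1.67 and -0.63, beside the low 28S control of the same array. IGLC1, a constant region of immunoglobulin light chains, had folds of -1.79 and -0.62. Some of the 89 have near copies in the genome, among them pseudogenes such as BMS1P1, GUSBP14 and RABGEF1P1, and zinc finger genes such as ZNF91 and ZNF93. Their probe sets may read related transcripts too, which makes the gene uncertain.

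Folds scattered more for this pair of arrays than in the other comparisons, in each of 5 groups by signal. The probe sets and groups were chosen by the signals of this pair and kept for the other comparisons. A probe set counted if it reached the median on either array of this pair. Part of the contrast among dim probe sets is thus built in. The robust SD of folds in 5 groups of probe sets of equal number, from dimmest to brightest, was 0.84, 0.50, 0.38, 0.28 and 0.22. It was 0.53, 0.36, 0.25, 0.19 and 0.16 for siltuximab and IL-6 over untreated, and 0.54, 0.38, 0.31, 0.25 and 0.21 for IL-6 in SKOV-3. The lower side was the wider one on the deposited scale, while after quantile normalization or cyclic loess the shares over all levels, given above, lay closer together. In the dimmest group 31.1% of probe sets were at least 1.5-fold lower and 17.2% higher, in the middle group 12.7% and 4.13%, and in the brightest group 2.72% and 1.96%. In SKOV-3 the shares lower and higher among the probe sets of that dimmest group, set by the Caov-3 signals, were 16.3% and 14.5%.

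**Figure D4:**
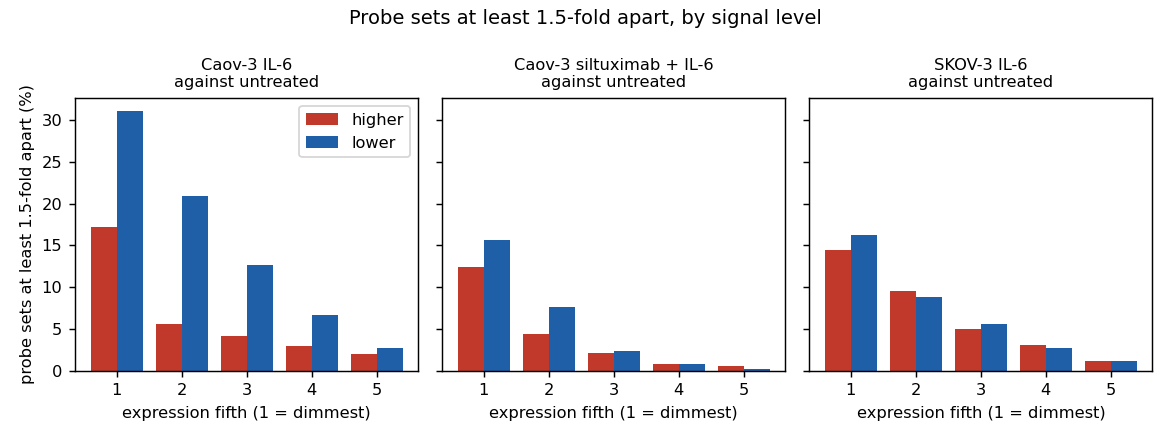
Bars give the percentage of probe sets at least 1.5-fold higher (red) and lower (blue) in each of 5 groups by signal, from the dimmest (1) to the brightest (5), in 3 comparisons. Signals are on the deposited scale, and the probe sets and groups of all 3 comparisons were set by the Caov-3 untreated and IL-6 arrays. In the Caov-3 IL-6 comparison the blue bars run from 31.1% to 2.72% and stand above the red bars in every group, while both colours are of like height in SKOV-3.

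The kind of probe set moved with these shares. Of 2058 probe sets with identifiers of 7 digits, 27.9% were lower and 9.91% higher, against 13.6% and 6.05% of the other 22386. In SKOV-3 the same probe sets, chosen by their Caov-3 signals, were at 12.4% and 11.6%. Probe sets whose names end in _x_at, which may read related sequences, were lower in 21.4% and higher in 5.92%, and those in _a_at in 24.9% and 8.08%, against 13.8% and 7.27% for plain _at names. The parts of the array and of the probe sets in the results were not tested beyond the counts without these kinds, which were 73 lower and 21 higher genes without the identifiers of 7 digits.

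In the gene lists, no tested member was higher by the rule in any list, where 0.34% of all tested genes were. Members with a single counted probe set could not meet the rule. The median over all 6466 genes of the mean fold was -0.05. Of 13 tested early targets of IL-6 and STAT3, 1 was lower (STAT3), 1 was split (BCL6) and the median was -0.18. None had all of its probe sets above untreated, where 1299 of 6466 genes had, and 3 had all below, where 1209 had. The 1 lower and 1 split gene stand beside shares of 1.38% and 3.67% over all genes. Of the 3, ICAM1, an adhesion molecule of leukocytes, read 3205, 2164 and 645.1 untreated and 2003, 386.8 and 435.8 with IL-6, folds of -0.67, -2.43 and -0.55. All 3 probe sets of ICAM1 were lower, but by amounts that ranged widely. OSMR, the receptor of oncostatin M, was the third, with folds from -2.25 to -0.14. Of 11 further early targets with a single counted probe set, 1 stood at least 1.5-fold higher and 0 lower. Over all counted probe sets these shares were 6.38% and 14.8%.

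Of 25 tested genes of the IL-6 receptor and JAK-STAT pathway, 1 was lower and none was split, with a median of -0.13. The signal transducer IL6ST had folds from -0.81 to 0.12 over 3 probe sets, and the kinase JAK1 from -0.81 to -0.10. ADAM17, the protease that sheds the IL-6 receptor, read 1046, 398.8 and 1550 untreated and 801.9, 299 and 1336 with IL-6, folds of -0.38, -0.40 and -0.21. Other feedback inhibitors, SOCS2 and SOCS6, had folds of 0.09 to 0.14 and of 0.07 to 0.52, all short of 1.5-fold. Apart from STAT3, none of the 25 tested genes thus had probe sets that all met the threshold. Of 9 further pathway genes with a single counted probe set, 1 stood at least 1.5-fold higher and 0 lower. Over all counted probe sets these shares were 6.38% and 14.8%.

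Immediate early genes stood near the background, with 0 of 16 higher or lower, 1 split (NR4A1) and a median of 0.07. CCN1, a matricellular protein, read 2421 and 1210 untreated and 3390 and 1447 with IL-6, folds of 0.48 and 0.25. ATF3 and KLF4, factors of the stress response and of growth control, had folds of 0.24 to 0.49 and 0.25 to 0.30. MAFF, a small MAF protein, went the other way at folds of -0.38 and -1.89. Of 13 genes of the NF-kB system, 0 were higher or lower and the median was -0.16. NFKBIA, its inhibitor, read 5148 and 39.97 untreated and 6444 and 73.02 with IL-6, folds of 0.32 and 0.66, and CXCL8, a chemokine gene, had folds of 0.23 to 0.35. Of 13 further NF-kB members with a single counted probe set, 2 stood at least 1.5-fold higher and 0 lower. Over all counted probe sets these shares were 6.38% and 14.8%.

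Interferon-stimulated genes had the lowest median of the lists, -0.40 over 13. Of these, 2 were lower, where 1.38% of all genes were, 1 was split, where 3.67% were, and 6 had all probe sets below untreated, where 1209 of 6466 had. In 2 all probe sets lay above untreated, and in 5 the signs were mixed. Of 17 further members with a single counted probe set, 0 stood at least 1.5-fold higher and 1 lower. Over all counted probe sets these shares were 6.38% and 14.8%. RSAD2 (viperin), an antiviral enzyme, read 1481 and 1408 untreated, 770 and 297.2 with IL-6 and 1382 and 1597 with siltuximab before IL-6, folds of -0.93 and -2.18. OASL, a relative of the sensors of double-stranded RNA, read 2003 and 2050, 1101 and 1139, and 2301 and 2671, folds of -0.85 and -0.84. The IL-6 array was the low one for both, and the other arrays lay together. In SKOV-3 their folds were between -0.20 and 0.53.

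The other lists held 4 members that met the rule, all lower, where 1.38% of all tested genes were. ABL2, a kinase related to ABL1, was the one of 9 SRC family and related kinases, at 407.2 and 231.1 untreated and 235.1 and 64.54 with IL-6, folds of -0.75 and -1.60. SRC, which can phosphorylate STAT3, was split, with folds of 2.90 and -1.08. LYN was split too, from -0.69 to 0.61, where 3.67% of all tested genes were split. Of 4 further kinases of this list with a single counted probe set, 2 stood at least 1.5-fold higher and 0 lower. Over all counted probe sets these shares were 6.38% and 14.8%. U2AF1, which recognises the 3' splice site, was the one of 49 RNA-binding and splicing proteins that met the rule, at 7452, 447.9 and 197.8 untreated and 4563, 208 and 65.12 with IL-6. EIF5A, an elongation factor, was the one of 19 translation factors, at 4638, 10490 and 2441 untreated and 2413, 3849 and 1553 with IL-6. CDC6, which loads the replicative helicase, was the one of 28 cell cycle genes, at 667.8 and 842 untreated and 371.8 and 523.3 with IL-6, folds of -0.82 and -0.67.

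The siltuximab array stood near untreated for some of these genes and near IL-6 for others. EIF5A was the brightest of the lower genes. With siltuximab and IL-6 its probe sets read 4324, 9627 and 2424, near the untreated signals, and its folds of IL-6 over untreated were -0.94, -1.44 and -0.65. CDC6 read 442.5 and 602.8 on that array, nearer to the signals with IL-6. ABL2 read 317.4, between its untreated and IL-6 signals, and 70.76, near its signal with IL-6. U2AF1 read 5099, 490 and 153.4, and had folds of IL-6 over untreated of -0.71, -1.05 and -1.39. Among survival and death genes, 0 of 17 met the rule and the median was -0.28. TNFRSF10A, a receptor of the death ligand TRAIL, had folds of -1.53, -1.49 and -0.29, and BAX, which opens the mitochondrial outer membrane, of -0.77 and -0.31.

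Reference genes had a median of -0.24 over 7. GAPDH read 44920 to 47620 untreated and 32680 to 36600 with IL-6, folds of -0.50 to -0.38, and ACTB read 46530 to 51160 and 39150 to 42900, folds of -0.28 to -0.20. The mean ACTB fold changed sign after quantile normalization. Mesenchymal markers had the highest median among lists with 3 or more tested genes, 0.16 over 7, where CAV1, the coat protein of caveolae, had folds of 0.17 and 0.51 and SPARC, a matrix protein, of 0.19 and 0.14. Ribosomal proteins (15 genes) had a median of -0.13, with none higher, lower or split. RPL7 had folds of -0.21, -0.23 and -0.48.

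The other lists with 3 or more tested genes had no gene that met the rule either, and medians from -0.17 to 0.06. These medians were -0.15 for heat shock proteins (STIP1 at -0.49 and -0.31, HSP90AB1 at -0.48 to -0.16) and -0.15 for cholesterol and fatty acid synthesis, where SREBF2, the factor that drives the pathway, stood at -0.30, -0.85 and -0.64. They were -0.09 for the unfolded protein response (HSP90B1 at -0.55 and -0.25, DNAJB9 at 0.13 to 0.48), -0.04 for hypoxia and glycolysis (SLC2A3 at -0.54 to -0.64) and 0.05 for oxidative phosphorylation (COX4I1 at 0.15 to 0.59). They were 0.05 for the proteasome (PSMC2 at 0.15 to 0.93), 0.01 for RNA decay (CNOT2 at 0.23 and 0.42) and -0.10 for chromatin regulators (CREBBP at 0.28 to 0.75, BRD2 at -0.78 to -0.45). They were -0.17 for acute phase and complement genes (C1S at -0.41 and -0.02), 0.06 for epithelial markers (MUC1 at 0.07 to 0.67) and -0.0032 for drug transport, where ABCC4 stood at -0.60 to -0.25. SREBF2, SLC2A3, COX4I1, PSMC2, CREBBP, BRD2, MUC1 and ABCC4 each had at least 1 probe set past 1.5-fold, and none of them had all of its probe sets past it.

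**Figure D5:**
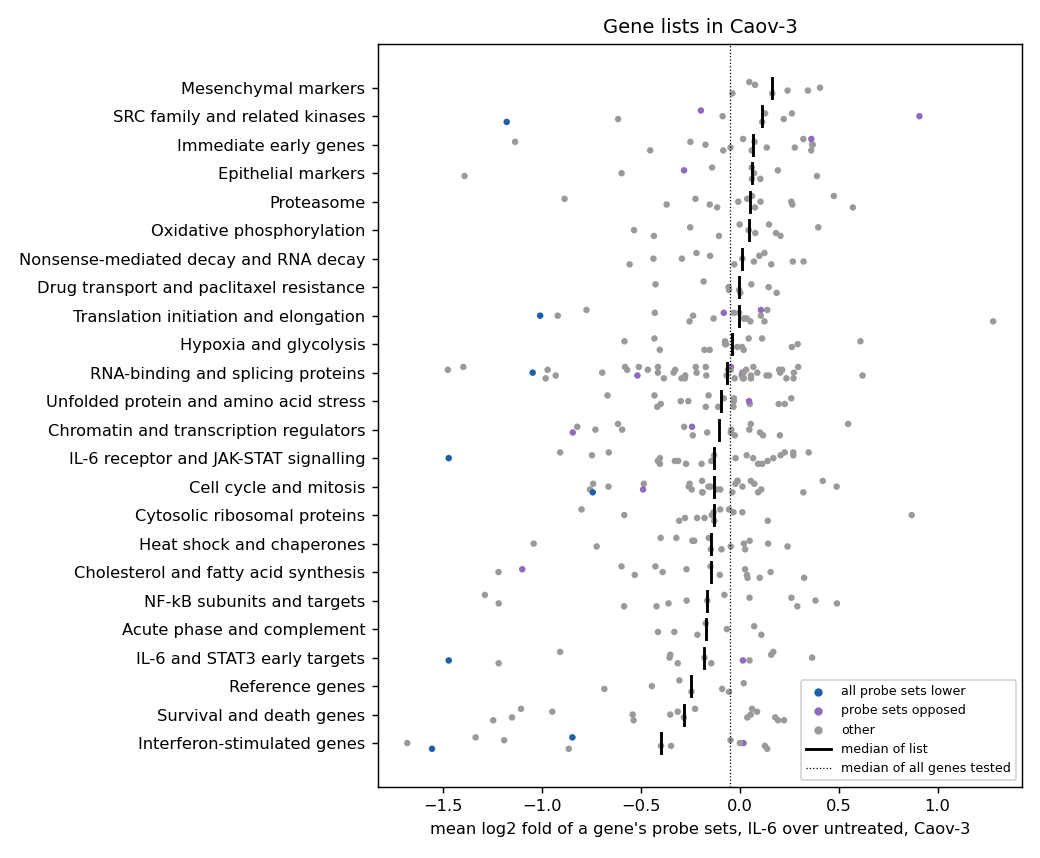
Each point is a tested gene of a list with 3 or more tested genes, placed by the mean log2 fold of its probe sets (IL-6 over untreated, Caov-3), with a black bar at the median of the list and a dotted line at the median of all genes, -0.05. Interferon-stimulated genes have the lowest median, -0.40, and mesenchymal markers the highest, 0.16.

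In 237 genes probe sets were split, and 5 of them are described, those in which the smaller of the highest and the lowest fold was largest. B3GALNT2, a glycosyltransferase, had a probe set at 3.122 untreated and 89.4 with IL-6 (fold 2.40) and another at 155.8 and 23.88 (fold -2.08), while its brightest read 3084 and 2924. EIF3B, a subunit of a translation initiation factor, had folds of 2.15 and -1.55 in dim probe sets, and the 3 brightest were between -0.10 and 0.19. MTCL2 had folds from -1.80 to 1.92, and ELP2, a subunit of Elongator, from -1.49 to 2.24. TES, a focal adhesion protein, had a probe set at 1169 untreated and 403.1 with IL-6 and another at 17.45 and 170.5. The brightest probe set of TES read 4244 and 3503. In all 5 genes the brightest probe set differed by less than 1.5-fold between the arrays.

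The members were set beside the other arrays. The siltuximab and IL-6 array was compared with the same untreated array, so that the folds share it, and the members were chosen by the untreated and IL-6 signals. The median of the mean folds over untreated of the 22 higher genes was 1.01 with IL-6 and 0.62 with siltuximab before IL-6, and that of the 89 lower genes -1.16 and -0.27. Over all 6466 genes these medians were -0.05 and -0.01.

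SKOV-3 shares no array with the rule. There, IL-6 over untreated had a median of the mean folds of 0.004 over the 22 higher genes and of 0.042 over the 89 lower genes, against 0.0059 over all 6466. All probe sets had the same sign as in Caov-3 in 7 of the 22 genes (31.8%) and the opposite sign in 7 (31.8%). For the 89 lower genes these counts were 20 (22.5%) and 28 (31.5%). Among all genes tested in Caov-3, 18.6% had all probe sets above untreated in SKOV-3 and 21.5% all below. The members with 2 probe sets reach a uniform sign more readily than genes with more.

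Of 5699 genes that could be tested in both lines, 2 met the rule in both, 1 the same way and 1 opposite ways. The rule was met by 111 of 6466 genes in Caov-3 and by 48 of 6290 in SKOV-3. Whether 2 is more than unrelated calls would share was not tested. PM20D2 was higher in both, with mean folds of 0.63 in Caov-3 and 0.77 in SKOV-3, where its probe sets went from 1152 to 1895 and from 919.5 to 1655. RFC2, a subunit of the clamp loader of DNA replication, was lower in Caov-3, at 1038 and 1337 untreated and 495.4 and 494.3 with IL-6, and higher in SKOV-3, at 777.1 and 1021 and then 1331 and 1752. On the Caov-3 array with siltuximab before IL-6 its probe sets read 742.2 and 938.6.

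The Caov-3 arrays carried the markers of an epithelial line. Each marker was read by its brightest probe set on each array. All 8 epithelial markers stood at or above the array median on the 3 Caov-3 arrays, EPCAM among them, and their summed signal was 89710 untreated, 87290 with IL-6 and 86440 with siltuximab before IL-6. Of 5 leukocyte markers 2 did (CD14 and CD79A), with sums of 970.1, 884.2 and 928.6, and of 5 fibroblast markers 1 did (COL1A1), with sums of 3952, 4525 and 4947. Of 4 endothelial markers 1 did, PECAM1, at 1162 untreated, 331.4 with IL-6 and 891.5 with siltuximab before IL-6, and the sums were 1259, 457.6 and 983.1. These PECAM1 signals come from 1 probe set, and its 4 others lay below the array median. PTPRC, the common leukocyte antigen, was at 35.07, 25.09 and 29.09, below the medians of 72.6 to 89.6. Dimmer probe sets of a marker could differ from its brightest. A dimmer CDH1 probe set went from 363.2 untreated to 35.51 with IL-6, a fold of -2.85, where the brightest had 0.07. The counted PAX8 probe sets had folds from -1.94 to 0.66. The part of these markers in the results was not tested.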

How the data were processed

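RNA of 6 samples was measured, 1 array each, and 2 of them make the comparison. The deposited values are signal intensities on a linear scale, which the authors made with Affymetrix Expression Console and MAS5, per the submitters' processing notes, neither with a version given in the sources used here. Scaling had been done before deposit, since each array had a mean of 500.06 to 500.07 once the top and bottom 2% of probe sets were trimmed. No detection calls were used here, and 1 array control is not reported here. Precision is limited by the number of arrays.

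The array has 54675 probe sets, of which 41091 carried 1 gene symbol, 1801 several and 11721 none, and 62 were controls. By identifier, 41037 matched current gene records, with 0 symbols changed. Signals were taken to log2 after adding 17.06, the 20th percentile of the deposited values of named probe sets. A gene was tested if at least 2 probe sets stood at or above the array median (percentile 50), and called if all of them were 1.5-fold the same way. Robust SD is the median absolute deviation times 1.4826. With 1 array a group no statistical test was possible; the counting was checked on simulated data.

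Genes named were SOCS3, CXCL3, STAT3, ACTB and GAPDH, the 12 genes called in each direction with the largest smallest fold, per list the 2 members of uniform sign with the largest smallest fold, the 5 widest split genes, and those nearest the threshold. The members and the gene lists were chosen with earlier results of these data known. Alternatives changed the pseudocount, scaling (limma 3.58.1 in R 4.3.3), filter, probe sets and threshold. Other calculations used Python 3.11.15, numpy 2.4.6, pandas 2.3.3 and matplotlib 3.10.9.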

Additional observations from a re-analysis of the deposited data

Results flagged for a closer look

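RFC2 stood opposite ways in the 2 lines. The mean log2 fold of IL-6 over untreated was -1.22 in Caov-3 and 0.77 in SKOV-3, and both of its probe sets were lower in Caov-3 and higher in SKOV-3. Each line had 1 array a group, and the difference between the lines was not tested.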

How the results depend on the processing

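With the settings of the report 22 genes were higher, 89 lower and 237 split. A pseudocount at the median (111) gave 5, 47 and 71. A median filter on both arrays gave 6, 49 and 92, a filter at the 75th percentile 5, 31 and 33, no filter 80, 151 and 970, and a 2-fold threshold 4, 32 and 45. The higher genes alone numbered 61 after quantile normalization, 57 after cyclic loess and 14 with the filter on the siltuximab and IL-6 array. The split genes numbered 112 once those with names in _x_at or _s_at were left out. The counts stayed within 1.5 times of the main ones with a pseudocount of 1, with folds centred on their median, and without identifiers of 7 digits (21, 73 and 183), an alternative chosen after seeing the data. The causes were not tested, apart from the fewer genes tested under stricter filters.

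Quantile normalization and cyclic loess moved the median fold of all probe sets from 0.0156 to 0.0793 and 0.0811. Under all 3 other scalings, 19 of the 22 higher and 58 of the 89 lower genes met the rule, and with the pseudocounts too 4 higher (TP53I11, ZNF232-AS1, CLUH and CBLL1) and 47 lower, STAT3 among them. Of the 79 genes named by the stated choices, none that met the rule changed direction under the other pseudocounts and scalings. Direction was not checked under the other filters and choices of probe sets. With no filter, some of them no longer met the rule, TP53I11, IL1RL1, BLZF1 and GTSE1 among them. No paired analysis was possible because each group had 1 array and no test was made. The signal near background limits the dim higher genes most.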
